A study of Mus musculus with 14 samples.

Results

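The response of *Tet1/2* DKO cells to 72 h of mTORi was described from bulk RNA-seq. E14 is a line of mouse embryonic stem (ES) cells, and the DKO cells are E14 cells with a double knockout of *Tet1* and *Tet2*. mTORi stands for treatment of the cells with INK128, which inhibits the kinase mTOR. The 4 libraries of this comparison, out of 14 in the series, were taken by their source label, 2 from untreated DKO cells (0 h) and 2 from DKO cells after 72 h of INK128. Wild-type E14 cells, with 2 untreated libraries and 2 after 72 h of INK128, were the most similar comparison. All cells shared the E14 background and were grown feeder-free in medium with serum and LIF. The DKO cells were derived as clones from individually sorted cells after Cas9 editing, and how many clones the libraries represent is not given in the sources used here. The replicates of each time are separate samples in the labels. Each p-value rests on the spread between replicates, pooled over all 7 groups of the series and drawn towards that of other genes.

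mTOR couples nutrients and growth factors to protein synthesis, lipid synthesis and glycolysis, and ES cells with inhibited mTOR enter a reversible dormant state that resembles the diapause of the blastocyst. One route from mTOR to metabolism runs through ATF4, a transcription factor of amino acid supply, whose synthesis depends on mTOR and on stress kinases. A further route runs through SREBP, which drives the genes of cholesterol and fatty acid synthesis. TET enzymes oxidize methylated cytosine and thereby start DNA demethylation, so germ cell genes and other genes held by promoter methylation are of interest in cells that lack them.

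Values are TPM, a length-corrected share of the RNA of a library, multiplied by 1 factor per library that carries the authors' ERCC spike-in normalization, called spike-in normalized TPM here. The sources used here do not give the step at which the spike-in was added relative to the fixed RNA input of the libraries, so whether these values follow RNA per cell is not known. The factors of the untreated DKO libraries were 2.81 and 2.38 and those of the 72 h libraries 2.53 and 1.73, so that the mean over all genes was 51.7 and 43.6 without treatment and 46.5 and 31.7 with it. The 2 libraries at 72 h thus lay far apart, the first of them above the lower of the untreated ones. TPM keep no read counts, so the depth is unknown and no counting error can be given. *Tet2* RNA was at 53.9 and 52.7 in the untreated DKO libraries and then at 55.0 and 32.3 at 72 h, against 210 and 203 in untreated wild-type cells. *Tet1* RNA was at 427 and 349 before treatment and at 602 and 429 after it, against 416 and 403 in untreated wild-type cells, so the summed RNA of the gene does not show the knockout. *Tet3*, the member of the family left in these cells, was at 23.0 and 17.2 before treatment and at 28.6 and 18.8 after it. None of the 3 *Tet* genes passed the test, with log2 fold changes of 0.40 for *Tet1*, −0.33 for *Tet2* and 0.21 for *Tet3* (limma adjusted p = 0.483, 0.553 and 0.77). In plain TPM *Tet1* and *Tet3* rose, by 0.70 and 0.48 (limma adjusted p = 0.0007 and 0.02).

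The ES cell markers were high at both times, though *Nanog* was at 730 and 693 before and at 473 and 215 after treatment. *Nanog*, *Zfp42* and *Esrrb* are described further below. *Pou5f1*, the POU factor at the centre of pluripotency, was at 2506 and 2509 in the untreated libraries and at 2035 and 1436 at 72 h. *Sox2* was at 695 and 475 before and at 629 and 418 after treatment, and the groups overlapped. Markers of other cell types were also measured. Of 16 primitive endoderm markers 12 lay below the median of all genes, 1 was called lower and 5 were under the block, and their summed level was 1723 and 1353 before and 1317 and 939 after treatment. Of 12 trophectoderm markers 0 were called by limma, 5 were lower at an unadjusted p under 0.05 and 5 were called lower under the block. Plain TPM called 1 in each direction, and 9 of the 12 had a spike-in normalized fold change below 0. The sum of the trophectoderm list was 243 and 215 before and 134 and 93.4 after. Against that sum, *Cdx2* was at 1.21 and 0.90 before and at 1.87 and 2.04 after. *Eomes* was also higher in both 72 h libraries than in either untreated one, while the groups of *Gata3* overlapped. The sum of the neuroectoderm list was 216 and 201 before and 142 and 85.2 after, with 0 of 5 called, 1 lower at an unadjusted p under 0.05 and 2 called lower under the block (limma). These 3 sums were thus lower at 72 h in both libraries. The sum of the fibroblast list was 54.4 and 56.3 before and 48.6 and 37.9 after, with 1 of 6 called, *Thy1*, which was lower. The median of the list was 0.49, and only 1 of the 6 had a fold change below 0. Plain TPM called 3 higher and 0 lower. The collagen genes *Col1a1*, *Col1a2* and *Col3a1* stayed under 1.23 in all 4 libraries. The sums of the mesendoderm list were higher at 72 h, with values of 14.9 and 16.9 before and 28.0 and 23.1 after. *T*, the brachyury gene of early mesoderm, rose from 0.88 and 0.61 to 3.28 and 2.96 (log2 fold change 1.25, limma adjusted p = 0.0431). No gene of this list was called higher with an added constant of 0.1, with no filter, with a block across all libraries, with the 4 or the 6 DKO libraries alone, or without any 1 DKO library. *Mixl1* was at 2.91 and 1.29 before and at 2.86 and 0.79 after. The endoderm factor *Gata6* was at 18.6 and 4.90 and then at 21.8 and 7.99, and its groups overlapped. The part of such cells in the results that follow was not tested. In bulk RNA, fewer cells of a type and less RNA per cell cannot be told apart.

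After 72 h of mTORi, 21 of 25 genes of the ATF4 amino acid response fell in the DKO cells. So did 8 of 20 of glycolysis, 6 of 19 of tRNA charging and 8 of 32 of lipid synthesis. Fewer genes rose, among them *Nphs1*, 2 members of a list of FOXO and insulin feedback genes and the germ cell genes *Mov10l1*, *Tdrd1* and *Sycp2*. Of 18232 genes tested, 130 were called higher (0.713%) and 537 lower (2.95%) at an adjusted p under 0.05 (limma, Benjamini-Hochberg). At an unadjusted p under 0.05, 1010 genes were higher and 2578 lower. The median gene moved by −0.12 on the log2 scale, and 10838 genes had a fold change below 0.

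These counts depended on the scale and on the pairing of the libraries. In plain TPM the median gene moved by 0.14 in the other direction, and 3145 genes were called higher (17.2%) and 1651 lower (9.06%). Under a replicate block set within the genotypes, which compares each 72 h library with the 0 h library of its own number, 974 genes were called higher (5.34%) and 2403 lower (13.2%). All 130 genes called higher were also called higher in plain TPM and under the block. Of the 537 genes called lower, 503 were also called lower in plain TPM and 537 under the block, and none turned its direction. Leaving out 1 library moved the counts by more than 1.5 times in most cases. The fit without replicate 2 at 72 h called 26 genes higher and 66 lower, and that without replicate 1 at 72 h called 15 and 367. Without replicate 1 at 0 h the counts were 72 and 160, and without replicate 2 at 0 h they were 27 and 176. All 667 called genes kept their direction in each of these 4 fits. For all 130 genes called higher and 536 of the 537 called lower, the 0 h and 72 h libraries did not overlap on either scale. Leaving out 1 library could thus not turn the direction of these genes. The median of all genes ranged from −0.40 (without replicate 1 at 72 h) to 0.14 (without replicate 2 at 72 h). The levels behind each change, and the place of the median on either scale, are drawn in the plot of fold change by level.

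**Figure D1:**
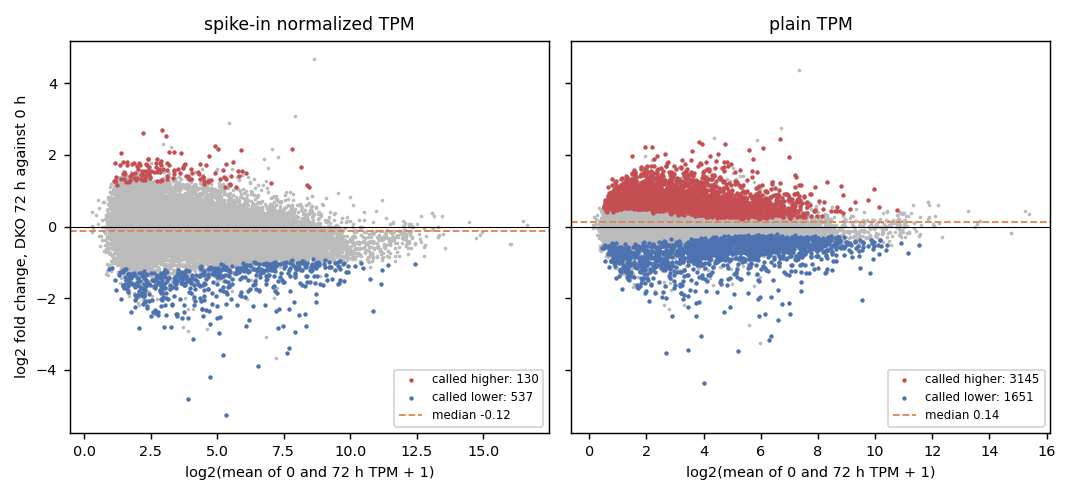
Each dot is 1 of the 18232 genes tested, placed by the log2 of its mean level over 0 and 72 h plus 1 (x axis) and its log2 fold change in the DKO cells at 72 h against 0 h (y axis), in spike-in normalized TPM (left) and plain TPM (right). Red and blue dots are genes called higher and lower, and the dashed line is the median, which lies at −0.12 on the left and at 0.14 on the right.

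Protein-coding genes made up 13243 of the genes tested, with 87 called higher, 475 lower and a median of −0.19. The 551 lincRNA genes held 15 called higher and 20 lower, with a median of 0.13. Among the 3647 genes in the highest of 5 equal classes by level, 5 were called higher and 172 lower, and the median was −0.38. In the lowest class of 3647 genes, 35 were called higher and 60 lower, and the median was 0.11. The highest class thus held more called falls and fewer called rises than the lowest, whose fold changes the added constant of 1 understates. The classes between, from low to high level, held 119, 104 and 82 called lower.

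The ATF4 response held the largest falls. Of 25 members tested, 21 were called lower and 0 higher, all 25 lay below the median of all genes, and the median of the list was −1.54 against −0.12 for all genes. Under the block 24 were called lower, and in plain TPM 21, with a median of −1.14. *Nupr1*, a small stress-induced chromatin protein, fell from 86.7 and 68.0 to 1.10 and 0.97 (log2 fold change −5.26, SE 0.42, limma adjusted p = 9.05e-07), the largest fall of all named genes. *Chac1*, which degrades glutathione, fell from 60.3 and 39.2 to 1.99 and 1.44 (−4.20, SE 0.39, limma adjusted p = 7.44e-06). *Trib3*, a pseudokinase that feeds back on ATF4 and AKT, fell from 78.9 and 54.9 to 4.15 and 4.90 (−3.60). The 0 h and 72 h libraries lay far apart for all 3 genes. *Atf4* itself went from 713 and 609 to 210 and 153 (−1.87, limma adjusted p = 0.000823).

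The enzymes of serine and one-carbon metabolism in the same list fell together. *Phgdh*, which opens serine synthesis, went from 258 and 214 to 70.8 and 58.2 (−1.85), *Psat1* from 793 and 564 to 187 and 128 (−2.10) and *Psph* from 127 and 62.2 to 28.5 and 17.7 (−1.94). *Mthfd2*, the mitochondrial folate enzyme, fell from 303 and 235 to 42.2 and 31.7 (−2.83, SE 0.29, limma adjusted p = 1.87e-05), and *Shmt2* fell from 562 and 490 to 247 and 207 (−1.21). Amino acid transporters also fell, with *Slc7a5* from 396 and 302 to 161 and 103 (−1.42), its partner *Slc3a2* from 605 and 520 to 304 and 233 (−1.07) and the cationic transporter *Slc7a3* from 260 and 261 to 127 and 62.8 (−1.54). *Ddit4*, an inhibitor of mTORC1, went from 89.7 and 29.5 to 6.91 and 4.71 (−2.97, limma adjusted p = 0.00183). *Sesn2*, the leucine sensor upstream of mTORC1, went from 200 and 149 to 83.0 and 54.5 (−1.35). The members that were not called were *Asns* (866 and 904 at 0 h, 691 and 440 at 72 h), *Atf5*, *Cebpb* and *Cbs*. Between 7 members (without replicate 2 at 72 h) and 21 (without replicate 1 at 72 h) were called lower when 1 library was left out, with 11 and 13 without replicates 1 and 2 at 0 h.

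A motif of ATF4 with a CEBP partner, TGATGNAA on either strand, was sought in the promoters of RefSeq (build GRCm38.p6, 250 bases before to 50 after each start). Of 18209 gene symbols tested, 10908 had a promoter there, and 2.66% of these held the motif. It was in 28 of 379 promoters of genes called lower (7.39%), in 4 of 77 of genes called higher (5.19%) and in 7 of 22 of the ATF4 list. Within the 250 bases before the start, the counts were 22 of 379, 1 of 77 and 6 of 22. The stretches around the motif are shown for the called genes of the ATF4 list and for the 2 called aminoacyl-tRNA synthetase genes that hold it upstream of the start. Capitals mark the motif, as it stands on the strand of the gene.
Nupr1, chr7:126625533-126625620, minus strand: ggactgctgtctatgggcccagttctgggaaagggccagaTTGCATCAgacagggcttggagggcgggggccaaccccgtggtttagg
Chac1, chr2:119351009-119351096, plus strand: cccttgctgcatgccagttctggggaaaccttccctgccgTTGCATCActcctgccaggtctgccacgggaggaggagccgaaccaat
Pck2, chr14:55540123-55540210, plus strand: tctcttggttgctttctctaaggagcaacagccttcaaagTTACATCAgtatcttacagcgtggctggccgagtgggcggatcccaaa
Pycr1, chr11:120643804-120643891, minus strand: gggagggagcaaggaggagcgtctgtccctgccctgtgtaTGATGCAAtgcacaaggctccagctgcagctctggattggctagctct
Vldlr, chr19:27216780-27216867, plus strand: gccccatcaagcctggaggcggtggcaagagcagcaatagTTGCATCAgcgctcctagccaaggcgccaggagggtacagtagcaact
Aars, chr8:111033690-111033777, plus strand: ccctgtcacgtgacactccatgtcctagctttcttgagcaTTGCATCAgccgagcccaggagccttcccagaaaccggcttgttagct
Tars, chr15:11399659-11399713, minus strand: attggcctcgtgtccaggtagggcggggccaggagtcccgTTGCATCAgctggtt
Of these 7 genes, *Pck2*, the mitochondrial PEP carboxykinase, fell from 43.2 and 33.3 to 8.96 and 4.90 (log2 fold change −2.34), *Vldlr*, a lipoprotein receptor, from 4.15 and 2.51 to 0.44 and 0.28 (−1.65), and *Pycr1*, of proline synthesis, from 70.0 and 53.6 to 30.7 and 17.0 (−1.38). A match of letters is a description and says nothing of binding. Of the 5 other motifs sought, the E-box CACGTG was in 11.8% of all promoters, 15.6% of those of genes called higher and 10.6% of those of genes called lower. The FOXO motif GTAAACA was in 3.15%, 6.49% and 3.43%, but within the 250 bases before the start in 2.74%, 1.30% and 3.17%, so the order turned with the window. In the whole window the shares were, for the YY1 motif GCCATNTT, 9.87%, 6.49% and 6.86% and, for the KLF box GGGTGTGG, 4.63%, 1.30% and 5.80%. The sterol response element TCACNCCAC was in 1.44% of all promoters and in 0 of 77 and 4 of 379. Both strands were read, and the sterol element and the KLF box can overlap.

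The aminoacyl-tRNA synthetases, which charge tRNAs with amino acids, had fold changes below 0 throughout. All 19 members tested lay below the median of all genes, 6 were called lower and 0 higher, and the median of the list was −0.88. Under the block 13 were called lower and in plain TPM 12. *Cars*, the cysteine enzyme, fell from 376 and 277 to 105 and 80.0 (−1.80, SE 0.30, limma adjusted p = 0.00196), *Aars*, the alanine enzyme, from 513 and 428 to 171 and 126 (−1.67), and *Nars*, for asparagine, from 784 and 623 to 257 and 204 (−1.61). *Sars*, *Yars* and *Tars* were also called, with −1.59, −1.34 and −1.13. *Qars*, for glutamine, was at 258 and 237 before treatment and at 231 and 162 after it (−0.35, limma adjusted p = 0.533), with the first 72 h library just below both untreated ones. With replicate 2 at 72 h left out 1 member was called and with replicate 1 at 0 h left out 2, against 5 without either of the other libraries.

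The list of glycolysis genes has 20 gene identifiers tested, of which 8 were called lower and 0 higher, and its median was −0.95. Under the block 14 were called lower and 1 higher, and in plain TPM 13 and 1. *Ldha*, which makes lactate, fell from 3594 and 2614 to 611 and 580 (−2.36, SE 0.32, limma adjusted p = 0.000337), and *Tpi1*, the triose isomerase, from 525 and 380 to 85.2 and 74.1 (−2.48). *Eno1* fell from 3632 and 3116 to 1309 and 929 (−1.61) and *Aldoa* from 3352 and 3225 to 1592 and 1251 (−1.22). These 3 abundant genes, *Ldha*, *Eno1* and *Aldoa*, were among the 6 with the largest loss in TPM of the called genes within the naming rule given below. *Pgk1* (−1.46), *Pfkp* (−1.55), *Pgam1* (−1.26) and *Aldoc* (−1.35) were called too. *Gapdh* was at 9143 and 8787 before treatment and at 5586 and 4674 after it (−0.81, limma adjusted p = 0.113, under the block 0.03). *Hk2*, the entry enzyme, was at 438 and 407 and at 410 and 329, and its groups overlapped. *Pdk1*, which keeps pyruvate out of the mitochondrion, was at 191 and 157 before treatment and at 320 and 219 after it (0.61, adjusted p = 0.258, under the block 0.047, in plain TPM 0.0014, all limma). Leaving out replicate 2 at 72 h left 2 members called, without replicate 1 at 0 h 4 and without replicate 2 at 0 h 5.

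Of 32 genes of cholesterol and fatty acid synthesis tested, 8 were called lower and 0 higher, 31 had a fold change below 0, and the median was −0.72, which was −0.45 without replicate 2 at 72 h. Under the block 21 were called lower, and in plain TPM 18 were called lower and 1, *Elovl6*, higher. The desaturases led this group. *Scd1* fell from 103 and 147 to 23.4 and 16.0 (−2.61, SE 0.33, limma adjusted p = 0.000197), *Scd2* from 582 and 637 to 238 and 176 (−1.57) and *Fads2* from 101 and 115 to 39.1 and 23.1 (−1.80). *Acly*, which supplies acetyl-CoA, fell from 653 and 567 to 352 and 235 (−1.08). Of the sterol branch, *Idi1* (−1.20), *Ebp* (−1.26), *Pmvk* (−1.18) and *Fdps* (−1.03) were called. Of these genes 1 was called without replicate 2 at 72 h and 3 without either 0 h library.

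**Figure D2:**
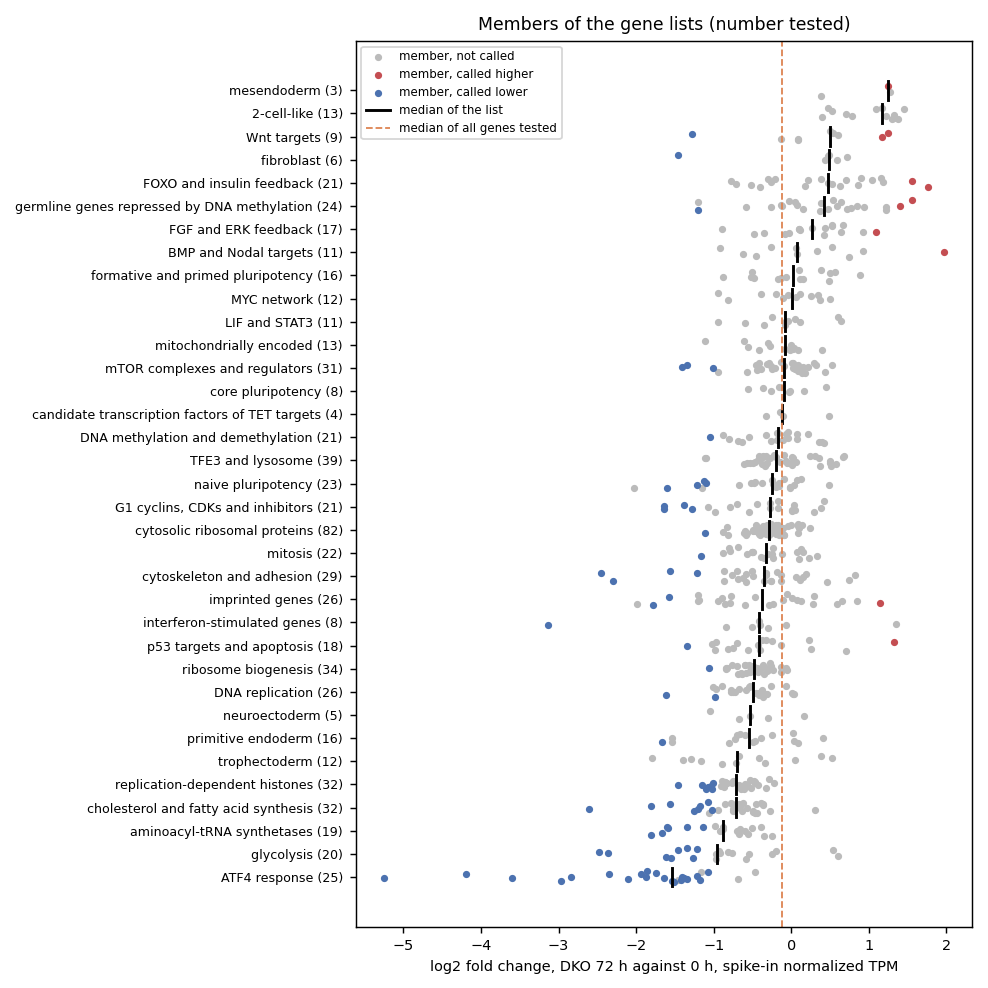
Each dot is a member of 1 of the 35 gene lists (rows, with the number tested), placed by its log2 fold change in DKO cells at 72 h against 0 h in spike-in normalized TPM (x axis). Red and blue dots were called higher and lower, the black bar is the median of the list and the dashed line the median of all genes, −0.12, with the ATF4 response at the bottom (−1.54) and the mesendoderm list of 3 genes at the top (1.25).

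The translation machinery is given by 2 lists. Of 82 cytosolic ribosomal protein genes tested, 1, *Rpl36al*, was called lower, and the median was −0.28, which turned to 0.02 in plain TPM. Under the block 4 were called lower, and in plain TPM 2 in each direction. The share called lower was no higher than the 2.95% of all genes, and the median ranged from −0.46 to −0.09 without replicate 1 and 2 at 72 h. Of 34 ribosome biogenesis genes all had a fold change below 0, 1 (*Nip7*) was called lower, 8 were under the block and 9 in plain TPM, with a median of −0.48 that ranged from −0.64 to −0.28 without the same libraries. Its share called lower was near that of all genes. The calls of *Rpl36al* and *Nip7* were lost whichever DKO library was left out. Among 31 genes of the mTOR complexes and their regulators, 3 were called lower and 0 higher, against 4 and 0 under the block and 3 and 10 in plain TPM, so the scale decides whether rises are called. With 1 library left out 0 to 2 were called lower, with 2 of them in the fit without replicate 1 at 72 h. The 3 genes were *Castor1*, an arginine sensor, from 98.6 and 75.6 to 34.3 and 29.6 (−1.41), *Sesn2*, and *Eif4ebp1*, the translation repressor 4E-BP1, from 457 and 427 to 235 and 204 (−1.01, limma adjusted p = 0.0442). *Mtor* was at 85.3 and 72.3 before treatment and at 120 and 81.0 after it (0.32, limma adjusted p = 0.579, in plain TPM 0.62 with 0.0011).

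Regulators of entry into S phase were lower in part. Of 21 tested, 4 cyclin genes were called lower and 0 higher. Under the block 7 were called lower, and in plain TPM 3 in each direction. *Ccne1*, cyclin E1, fell from 435 and 438 to 160 and 120 (−1.64, SE 0.27, limma adjusted p = 0.00174). The D-type cyclins *Ccnd3*, from 449 and 500 to 225 and 145 (−1.38), *Ccnd2*, from 14.7 and 11.7 to 3.72 and 3.32 (−1.64), and *Ccnd1*, from 144 and 151 to 69.1 and 52.0 (−1.28), fell as well. In plain TPM *Ccnd1* was at −0.97 and did not pass the test (limma adjusted p = 0.059). The inhibitor *Cdkn1b*, p27, was at 30.2 and 21.0 before treatment and at 44.2 and 24.95 after it (0.39). Without replicate 2 at 72 h 1 of these genes was called, and without either 0 h library 2.

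Of 26 replication genes 2 were called lower, 10 under the block, and 10 lower and 3 higher in plain TPM. With 1 library left out the number called lower ranged from 0, without replicate 2 at 72 h, to 3. *Rrm2*, a subunit of ribonucleotide reductase, fell from 771 and 735 to 307 and 194 (−1.62, limma adjusted p = 0.00299), and *Pcna*, the sliding clamp, from 955 and 1008 to 600 and 413 (−0.98). Of 22 mitotic genes *Aurka* was called lower (−1.16), 5 were called lower under the block, and 6 lower and 5 higher in plain TPM. With 1 library left out 1 mitotic gene was called without replicate 1 at 72 h and 0 in the other fits (limma). All 32 histone genes of the replication-dependent class had a fold change below 0, 7 were called lower, 17 under the block and 14 in plain TPM, and the median was −0.71. *Hist1h2bj* went from 2503 and 2524 to 1044 and 791 (−1.47). Histone genes are near-identical copies whose reads can be split between them, so single values are uncertain, and the plot of the gene lists shows the group as a whole. Without replicate 2 at 72 h no histone gene was called by limma, and the other 3 fits that left out 1 library called between 1 and 3.

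Of 23 naive pluripotency genes tested, 4 were called lower and 0 higher, and the median was −0.25, which was 0.06 in plain TPM. The block called 6 lower, and plain TPM called 2 higher and 5 lower. Without replicate 1 at 72 h the median was −0.66, and without replicate 2 at 72 h it was −0.03. *Spp1*, osteopontin, fell from 1081 and 1146 to 433 and 310 (−1.60, SE 0.30, limma adjusted p = 0.00456), *Klf2* from 397 and 399 to 184 and 157 (−1.22), *Fgf4* from 220 and 174 to 112 and 70.4 (−1.13) and *Tcl1* from 160 and 151 to 88.1 and 58.7 (−1.10). *Nanog* was at 730 and 693 before treatment and at 473 and 215 after it (−1.15). It missed the threshold (limma adjusted p = 0.0678) and passed it under the block (0.003) and in plain TPM (0.012). *Esrrb*, an orphan receptor of the naive network, was at 582 and 506 before treatment and at 621 and 343 after it, and *Klf4* at 379 and 228 and at 551 and 306, with overlapping groups for both. *Zfp42* went from 1926 and 1672 to 1536 and 1071 (−0.48, limma adjusted p = 0.379). Of 8 core factors 0 were called by limma, here or under the block, 0 passed an unadjusted p under 0.05, and 1 was called higher in plain TPM. Of the 16 formative and primed genes tested, 0 were called by limma, 1 in each direction passed an unadjusted p under 0.05, 1 was called in each direction under the block and 4 were called higher in plain TPM. Without replicate 2 at 72 h none of the naive genes was called, and without replicate 1 or 2 at 0 h 1 and 2 were.

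Apart from *Nnt*, for which the split between 2 identifiers is uncertain, the largest rises among the named genes were those of *Arhgef28*, a guanine nucleotide exchange factor, from 7.95 and 13.9 to 59.0 and 44.4 (2.18, SE 0.32, limma adjusted p = 0.000823), and *Nphs1*, the gene of the slit protein nephrin, from 84.4 and 76.4 to 421 and 310 (2.16, SE 0.27, limma adjusted p = 0.000197). *Nphs1* also had the largest gain in TPM of all called genes. *Kirrel2*, which encodes a relative of nephrin, rose from 20.2 and 20.5 to 80.0 and 67.7 (1.80). The genes lie head to head on chromosome 7 of mm10, *Nphs1* at chr7:30458315-30487223 on the plus strand and *Kirrel2* at chr7:30447534-30457690 on the minus strand, with 624 bases between their starts. The antisense gene *Nphs1os*, named after its values were seen, overlaps *Nphs1* and rose from 8.99 and 11.6 to 38.1 and 33.7 (1.71), and reads of such a pair are uncertain. *Lncpint*, *Tex16*, *Klhl13*, *Mthfd2* and *Meg3* also overlap annotated genes on the same strand.

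Other large rises were those of *Lncpint*, a p53-linked long noncoding RNA (2.08), *Igsf21*, a synaptic adhesion gene (1.74), the sodium-proton exchanger *Slc9a7* (1.72) and *Fam71e1* (1.77). *Epha2*, an ephrin receptor, rose from 283 and 160 to 560 and 369 (1.09) and *Nr1d2*, a clock repressor, from 36.5 and 31.5 to 114 and 82.5 (1.49, limma adjusted p = 0.0128). *Hbp1*, a repressor of the cell cycle, rose from 87.7 and 64.3 to 214 and 146 (1.23). The imprinted noncoding RNA *Meg3* rose from 264 and 154 to 497 and 404 (1.15), and of the other 25 imprinted genes tested *Phlda2* (−1.78) and *Grb10* (−1.57) were called lower. Of all 26 imprinted genes the block called 2 higher and 10 lower, plain TPM 3 in each direction, and the fits with 1 library left out at most 1 in either. The symbol *Nnt*, the mitochondrial transhydrogenase, stands for 2 overlapping identifiers. The value of 1 of them rose from 14.8 and 5.61 to 59.0 and 38.0, and that of the other fell from 32.4 and 32.6 to 7.29 and 6.64. Their sum was 47.2 and 38.2 at 0 h and 66.3 and 44.7 at 72 h, so the split between them is uncertain.

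**Figure D3:**
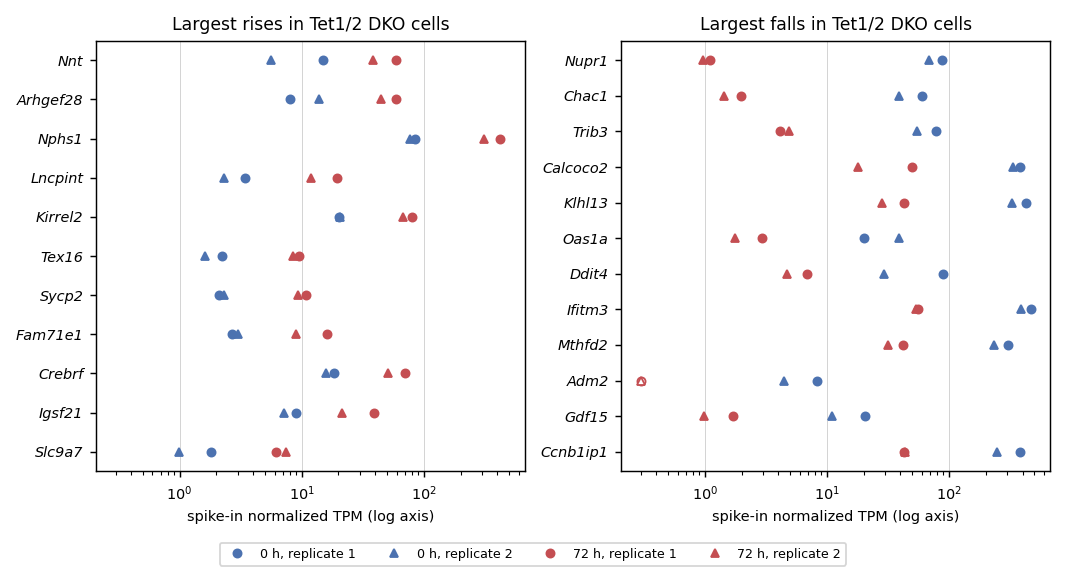
Spike-in normalized TPM (x axis, log) of 11 of the 12 largest rises (left) and the 12 largest falls (right) in each of the 4 DKO libraries, with blue for 0 h, red for 72 h, circles for replicate 1 and triangles for replicate 2. The 0 h and 72 h libraries do not overlap for any of these genes, as the rule of choice required, and *Adm2*, listed at 0 in both 72 h libraries, is drawn as open symbols at the left edge.

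The other large falls were spread over several functions. *Calcoco2*, an autophagy receptor, fell from 380 and 332 to 49.9 and 17.9 (−3.52, SE 0.48, limma adjusted p = 0.000402) and *Klhl13*, a cullin adaptor, from 425 and 328 to 42.5 and 28.3 (−3.39). The antiviral genes *Oas1a*, from 20.0 and 39.1 to 2.94 and 1.77 (−3.14), and *Ifitm3*, from 467 and 390 to 56.0 and 53.4 (−2.94), fell, but of the 8 interferon-stimulated genes tested *Oas1a* was the one called, against 1 higher and 2 lower under the block and in plain TPM. *Gdf15*, a stress cytokine, fell from 20.6 and 11.0 to 1.70 and 0.99 (−2.80). *Adm2*, a peptide of the calcitonin family, was at 8.30 and 4.45 at 0 h and was listed at 0 in both 72 h libraries. *Ccnb1ip1* went from 378 and 246 to 42.8 and 43.5, but it overlaps the abundant RNA *Rpph1* on the same strand, and its value is uncertain. Among the called genes within the naming rule given below, *Ptma*, prothymosin, had the largest loss in TPM, from 7338 and 7296 to 3937 and 3217 (−1.04).

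FOXO factors drive genes that growth factor signalling holds down. Of 21 genes listed for FOXO and insulin feedback, 2 were called higher and 0 lower, and 7 had a fold change below 0. The median was 0.47 against −0.12 for all genes. That median was 0.095 without replicate 1 at 72 h, 0.26 without replicate 2 at 0 h and 0.79 without replicate 2 at 72 h. Under the block 8 were called higher and 2 lower, and in plain TPM 14 were called higher. *Crebrf*, a leucine zipper regulator, rose from 18.3 and 15.8 to 70.3 and 51.2 (1.76, SE 0.31, limma adjusted p = 0.00302) and *Klhl24* from 32.9 and 26.4 to 106 and 74.6 (1.56, limma adjusted p = 0.00828). *Irs2*, an adaptor of the insulin receptor, was at 12.9 and 10.4 before treatment and at 29.2 and 17.2 after it (0.90, adjusted p = 0.123, under the block 0.0089, both limma). *Txnip*, a brake on glucose uptake, was at 301 and 217 and at 635 and 342 (0.86, adjusted p = 0.118, under the block 0.0069, both limma). *Rictor*, the mTORC2 subunit, was at 78.1 and 62.3 and at 120 and 84.0 (0.52, limma adjusted p = 0.403). Without replicate 2 at 0 h, or without replicate 1 at 72 h, 1 member was called. The 39 genes of TFE3 and the lysosome had 0 called by limma, 2 lower at an unadjusted p under 0.05, 2 called lower under the block, and 8 called higher and 3 lower in plain TPM. *Tfe3* was at 113 and 74.7 before treatment and at 81.0 and 65.7 after it (−0.33).

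Single targets of other signals rose. *Axin2*, the feedback target of Wnt, went from 23.2 and 30.2 to 67.0 and 54.8 (1.16, limma adjusted p = 0.041), and *Dusp4*, an ERK phosphatase, from 21.2 and 26.1 to 59.6 and 44.3 (1.09, limma adjusted p = 0.0372). *Axin2* and *T* were the members called higher of 9 Wnt targets, and *Dusp4* the one called of 17 genes of FGF and ERK feedback. *Ccnd1*, also on the Wnt list, was called lower. Under the block 2 Wnt targets were called higher and 1 lower, and 2 FGF and ERK genes higher and 1 lower. In plain TPM 4 Wnt targets were called higher, and 6 FGF and ERK genes higher and 1 lower. None of the members of either list was called higher by limma when any 1 DKO library was left out. *Bmf*, a pro-apoptotic BCL2 relative, rose from 27.3 and 16.3 to 66.6 and 44.7 (1.33), while *Sesn2* was the member of the 18 p53 and apoptosis genes called lower, against 2 higher and 7 lower under the block and 3 and 2 in plain TPM. With 1 library left out at most 1 gene of this list was called in either direction. Of 29 genes of cytoskeleton and adhesion *Vim* (−2.45), *S100a6* (−2.30), *Anxa2* (−1.56) and *Lmna* (−1.22) were called lower, with 2 higher and 7 lower under the block, 4 in each direction in plain TPM, and 1 or 2 lower with 1 library left out. Of 11 genes of LIF and STAT3, 12 of the MYC network and 13 encoded in the mitochondrion, 0 were called by limma, and at an unadjusted p under 0.05 1 LIF gene was higher, while 1 LIF, 2 MYC and 1 mitochondrial genes were lower. The block called 1 LIF gene in each direction and 2 MYC and 1 mitochondrial genes lower, and plain TPM called 3 LIF genes higher, 3 MYC genes higher and 1 lower, and 1 mitochondrial gene lower. Of the primitive endoderm list *Hnf4a* was called lower, from 11.9 and 8.56 to 2.79 and 2.21 (−1.67), and no member of the list was called by limma without replicate 1 at 0 h or without replicate 2 at 72 h.

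Of 24 germline genes held by DNA methylation, 2 were called higher and 1 lower, with a median of 0.43. Under the block 8 were called higher and 2 lower, and in plain TPM 10 and 2. *Mov10l1*, a helicase of the piRNA pathway, rose from 23.0 and 24.7 to 77.3 and 54.1 (1.40, SE 0.31, limma adjusted p = 0.0164) and *Tdrd1*, a scaffold of the same pathway, from 1.77 and 1.87 to 9.42 and 5.58 (1.55, limma adjusted p = 0.0165). *Rpl10l*, a ribosomal protein copy, fell from 400 and 405 to 204 and 149 (−1.20), and its reads may be shared with *Rpl10*. The germ cell helicase *Ddx4* was at 33.8 and 25.6 before treatment and at 63.9 and 45.5 after it (0.85, adjusted p = 0.138, under the block 0.011, both limma). *Dazl*, an RNA-binding protein of germ cells, was at 41.7 and 64.2 and at 54.2 and 52.8, with overlapping groups. Outside the list, *Sycp2*, part of the synaptonemal complex, rose from 2.12 and 2.30 to 10.9 and 9.26 (1.78), and the testis gene *Tex16* from 2.21 and 1.61 to 9.58 and 8.41 (1.79). Without replicate 2 at 72 h 2 members of the list were called higher, and without any of the other libraries 0 (limma). Of 21 genes of DNA methylation and demethylation, *Gadd45b* was called lower (−1.05), 4 were called lower under the block, and 6 higher and 1 lower in plain TPM. With any 1 DKO library left out limma called 0 of them, and at an unadjusted p under 0.05 in all libraries 6 were lower.

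Of 13 genes of the 2-cell-like state tested, 0 were called by limma, 8 were higher at an unadjusted p under 0.05, 7 were called higher under the block and 6 in plain TPM, and the median was 1.17. *Zscan4c* was at 48.4 and 19.9 before treatment and at 84.7 and 88.8 after it (1.45, adjusted p = 0.0861, under the block 0.011, both limma). The copies of *Zscan4* are near-identical, and their reads cannot be assigned with certainty. The summed level of the list was 279 and 114 in the untreated DKO libraries, 41.5 and 14.4 at 24 h and 439 and 467 at 72 h, so the 24 h libraries lay lowest and the 72 h libraries highest. In wild-type cells the summed level was 260 and 533 without treatment, 72.1 and 127 after 24 h and 373 and 273 after 72 h. Without replicate 1 at 0 h 3 members were called higher at 72 h, and without any of the other libraries 0 (limma).

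**Figure D4:**
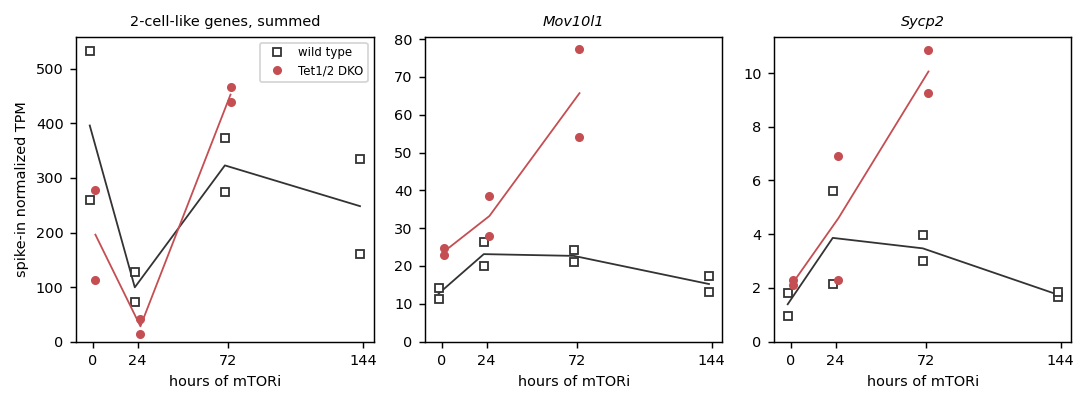
Spike-in normalized TPM (y axis) against hours of mTORi (x axis) for the summed 2-cell-like genes, *Mov10l1* and *Sycp2*, with 1 symbol per library, lines through the means, filled red circles for *Tet1/2* DKO and open squares for wild type. The DKO symbols of the 2-cell-like genes are at 279 and 114 before treatment and at 439 and 467 after it, and those of *Mov10l1* lie above the wild-type symbols at each shared time.

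The DKO response was set against that of wild-type cells by a test of the difference of both responses at 72 h. It called 0 of 18232 genes (0%, limma), with 181 at an unadjusted p under 0.05 and a smallest adjusted p of 0.99955. It also called 0 in plain TPM and under the block, with 676 and 684 genes at an unadjusted p under 0.05. The values of both genotypes are set side by side. The median of the ATF4 list was −1.54 in DKO and −1.41 in wild type, and that of glycolysis −0.95 and −1.01. That of the tRNA synthetases was −0.88 and −0.93 and that of lipid synthesis −0.72 and −0.90. The median of all genes differed between the genotypes. Taken from it, the 4 lists were, in the same order, at −1.41 and −1.08, −0.83 and −0.68, −0.75 and −0.60, and −0.59 and −0.57. *Nphs1* changed by 2.16 and 2.05, *Crebrf* by 1.76 and 1.70, *Ldha* by −2.36 and −2.54 and *Mthfd2* by −2.83 and −2.87. The values lay further apart for *Nupr1* (−5.26 in DKO and −3.88 in wild type), *Chac1* (−4.20 and −3.10), *T* (1.25 and 0.17) and *Slc9a7* (1.72 and 2.82), none of which passed the test of the difference. The median of the 2-cell-like genes was 1.17 in DKO and −0.25 in wild type and that of the germline genes 0.43 and 0.15. Taken from the median of all genes of the same genotype, these were 1.30 and 0.08 for the 2-cell-like and 0.55 and 0.49 for the germline genes. Without replicate 2 at 0 h the DKO median of the 2-cell-like genes was 0.58. Without replicate 1 at 72 h that of the germline genes was 0.17, near the wild-type value of 0.15, but the median of all genes was then −0.40. A test that calls 0 genes does not show that the responses were alike.

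**Figure D5:**
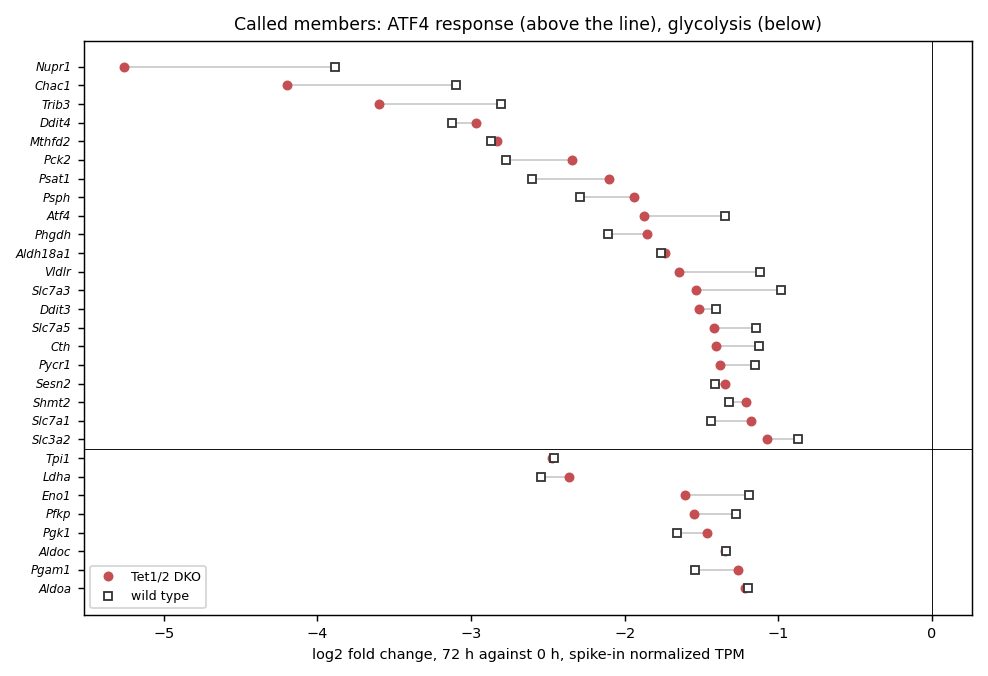
Log2 fold change at 72 h against 0 h in spike-in normalized TPM (x axis) of the 21 members of the ATF4 response (above the line) and the 8 of glycolysis (below) that were called in DKO cells, with filled circles for *Tet1/2* DKO and open squares for wild type. All 29 genes lie below 0 in both genotypes, and the widest gap is that of *Nupr1*, at −5.26 and −3.88.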

How the data were processed

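The authors trimmed the reads, aligned them to mm10 with STAR and quantified GENCODE VM19 genes with StringTie (cutadapt 2.4, STAR 2.7.3a and StringTie 2.0 per the labels). The deposited values are TPM, summed here per gene identifier (10 of 54446 have more than 1 entry). Each library was multiplied by the median ratio of the study's spike-in normalized table to the deposited TPM, taken over 1999 entries at the start of that table, where the TPM reached at least 1. The authors tested with DESeq2, which TPM do not allow. Here log2(TPM + 1) of 18232 genes, those whose mean over 14 libraries reached 1 (38890 were above 0 in any), was fitted in limma 3.58.1 (empirical Bayes with trend, R 4.3.3), with all 7 groups and no block. Fold changes are on the log2(TPM + 1) scale, which understates low genes. P-values were adjusted by Benjamini-Hochberg over all genes, and an adjusted p under 0.05 was called. The scripts were tested on simulated data.

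The study's Reporting Summary states that time points of a replicate were processed in parallel. The replicate differences of 0 and 72 h correlated at 0.305 across genes in DKO cells. Those of 0 and 24 h and of 24 and 72 h correlated at 0.341 and 0.222. Between wild type and DKO the values were −0.431 at 0 h and −0.501 at 24 h, and in wild type 0 and 144 h gave 0.062. Such values do not settle whether the numbers pair libraries, so the block is given beside the main fit.

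The members and lists were chosen with earlier results of these data known. Named genes are the *Tet* genes, list members, and, among called genes spanning 200 bp or more that carry a given name and do not overlap between the times on either scale (86 rises and 465 falls), the 12 largest rises and falls by fold change and the 6 by TPM. Any other gene is named as chosen after its values were seen. Gene coordinates are those of the files (mm10). Some genes that met these rules are not reported here.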

Additional observations from a re-analysis of the deposited data

How the results depend on the processing

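All 667 called genes kept their direction under every alternative in which they were tested. For nearly all of them the libraries of the 2 times did not overlap, so leaving out 1 library could not turn the direction. A block within each genotype leaves the fold change itself as it is. With no library of the 2 times left out, the number still called ranged from 185 (6 DKO libraries) to 667 (replicate block within each genotype). Genes called higher and lower, 130 and 537, became 3145 and 1651 in plain TPM, 2096 and 3025 after centring each library on its median, 974 and 2403 with a replicate block within each genotype and 4280 and 2248 with that block on plain TPM. A block across all libraries gave 103 and 523. Those called higher were 201 with no filter and 76 with a mean of at least 5, and with the 6 DKO libraries the counts were 38 and 193. The median of all genes, −0.12, was 0.14 in plain TPM, with or without the block. Leaving out 1 DKO library in turn gave 15 to 72 genes called higher, 66 to 367 called lower and a median of −0.40 to 0.14. The same on plain TPM, added after seeing the data, gave 1348, 1397, 1564 and 1848 higher, 652 to 1286 lower (879 without replicate 2 at 72 h) and a median of 0.12 to 0.15. The difference of the responses called 15 genes with no filter, 0 to 9 when 1 library was left out, and 0 to 2 on plain TPM. *Esrrb* turned to 0.072 and *Sox2* to 0.14 in plain TPM, with or without the block. With 1 library left out *Esrrb* ranged from −0.66 to 0.20, *Sox2* from −0.46 to 0.13, *Tet2* from −0.71 to 0.045 and *Tet3* from −0.075 to 0.50. The same on plain TPM turned *Esrrb* to 0.051, 0.093 and 0.22, *Sox2* to 0.12, 0.16 and 0.29, *Tet2* to 0.070 and 0.072 and *Tfe3* to 0.093 and 0.14. The cause was not tested. A fit that leaves a time with 1 library assumes that it varies like the other groups. The factors come from part of a table, and the unknown depth limits all low values.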

Other observations

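The genes named here were chosen after their values were seen, so they describe single genes and not a process. *Hfm1*, a crossover helicase, went from 4.16 and 5.05 at 0 h to 20.4 and 12.3 at 72 h (log2 fold change 1.596, limma adjusted p = 0.0284). *Topaz1*, a germ cell gene needed for meiosis, went from 1.80 and 1.24 to 7.11 and 5.55 (1.54). *Rnf212*, a ligase of crossover sites, went from 0.42 and 0.49 to 3.61 and 2.47 (1.46), *Terb1*, of the telomere attachment, from 1.63 and 1.36 to 6.60 and 4.13 (1.32) and *Zfp541* from 0.81 and 0.39 to 3.32 and 2.69 (1.33). *Syce2*, a central element of the synaptonemal complex, fell from 140 and 142 to 71.0 and 64.2 (−1.06). In wild-type cells the fold change of *Hfm1* was 1.24, that of *Topaz1* 0.94, of *Rnf212* 1.07, of *Terb1* 0.79, of *Zfp541* 0.77 and of *Syce2* −0.84, and the difference between the genotypes was called for none of them by limma. The levels of the genes that rose are low, which makes their fold changes depend on the added constant.

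Other genes chosen in the same way were called lower. *Hmox1*, heme oxygenase, went from 293 and 199 to 49.4 and 44.1 (−2.35, limma adjusted p = 0.00124), *Nqo1*, a quinone reductase, from 37.8 and 37.9 to 11.9 and 9.58 (−1.73), and the metallothioneins *Mt1* from 351 and 402 to 69.9 and 107 (−2.10) and *Mt2* from 1143 and 1411 to 420 and 468 (−1.52). The egg coat gene *Zp3* fell from 31.4 and 42.0 to 4.81 and 6.54 (−2.50).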
